A study of Mus musculus with 6 samples.

Results

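Matrix proteases cut the proteins that hold tissue together, and their inhibitors decide how long they act. The 9 genes described here are 3 secreted ADAMTS proteases (Adamts1, Adamts4, Adamts9), 3 matrix metalloproteases (Mmp9, Mmp12, Mmp14) and 3 tissue inhibitors of metalloproteases (Timp1, Timp2, Timp3). They were taken as a list of symbols from the 32285 genes of the matrix, and all 9 were measured. The list was chosen with earlier results of these data known. ADAMTS enzymes carry thrombospondin repeats that anchor them in the matrix, where Adamts1, Adamts4 and Adamts9 cleave proteoglycans such as versican and, for Adamts4, brevican. Metalloproteases are made as inactive precursors, and Mmp14, which sits in the membrane, activates Mmp2 together with Timp2. TIMP proteins block the active site, and Timp3 differs from the others in binding the matrix and in inhibiting ADAMTS and ADAM enzymes as well. In the ischemic brain this family is known for its part in the breakdown of the vessel wall and of its basement membrane.

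The cells came from the cortex of male RGS5::GFP het mice on a C57bl/6 background, 8 to 12 weeks old. In these mice GFP takes the place of 1 allele of Rgs5, so that every sample, the contralateral ones included, carries a single working copy of this mural cell gene. All mice had a permanent occlusion of the middle cerebral artery, and the 6 groups were the ipsilateral (stroke) and the contralateral cortex after 1, 12 or 24 h, with 1 library of live, neuron-depleted cells per group. There was no library of an animal without a stroke, and the methods count fewer mice than libraries. The labels give a kit with a single index at 1 and 24 h and a later version with a dual index at 12 h, and by the methods 24 h had another sequencer than 1 and 12 h. The 12 h groups and their kit, and the 24 h groups and their sequencer, therefore cannot be told apart, although the methods name the later kit for all libraries.

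In the deposited matrix a library is known only by a number from 1 to 6, and nothing in the sources used here says which group a number stands for. No value below is therefore assigned to a hemisphere or a time. The cells were described as 1 pooled sample and by numbered library, no library has a replicate, and no p-value was computed. Levels are unique molecular identifiers (UMIs, each 1 captured RNA molecule) per 1000000 UMIs of the summed cells (CPM). They are counts of transcript ends that do not depend on transcript length and were compared within a gene, not between genes. Intervals in parentheses are exact 95% intervals that cover counting error only.

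The 17357 cells held 105875444 UMIs, with 1221 to 5873 cells and a median of 5053 to 5660.5 UMIs per cell in a library, and 26 of 17331 cell barcodes occurred in more than 1 library. Clusters were named from marker genes into 13 classes with the ending "-like" understood throughout, from 8132 microglia to 22 choroid plexus cells, and a cluster of 259 cells was left under its leading genes Cd74 and H2-Eb1. Every class had each of its listed markers detected. Another 117 cells stayed unnamed. Neither the 9 genes nor the 56 other genes of the pathway took part in the clustering. Libraries 4 and 6 stood apart from the rest, since they held 121 and 235 of the 374 monocyte-derived macrophages, 793 and 548 of the 1384 cells of the activated microglia cluster, 173 and 317 of the 530 cells of the reactive endothelial cluster, and 22 and 33 of the 55 response pericytes described below. The levels of the members that rest most on these states are therefore also given within each of both libraries, whereas counts of genes and other pathway genes are pooled.

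Of the 9 members, 7 had a promoter in the RefSeq table for GRCm38.p6, which is the mm10 build of the files. The sequences of 4 members are shown because 3 of them, Adamts1, Adamts9 and Timp1, were high together in the response pericytes, and Mmp12 was high in the activated microglia. Each is the 250 bases before a transcript start, 5′ to 3′ on the strand of the gene. Capitals mark matches, on either strand, to GGGCGG for SP1, to TATAAA for the TATA box, to TGANTCA for AP-1, to ACGTG for HIF, to TGACGTCA for the cyclic AMP response element (CRE), or to the NF-kB motif.
Adamts1, chr16:85803114-85803363, minus strand: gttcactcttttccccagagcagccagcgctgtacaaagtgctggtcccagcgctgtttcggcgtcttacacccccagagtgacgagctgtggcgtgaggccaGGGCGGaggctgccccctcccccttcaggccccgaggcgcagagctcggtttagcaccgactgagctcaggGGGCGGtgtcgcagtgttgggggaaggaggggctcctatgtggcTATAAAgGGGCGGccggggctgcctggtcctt
Adamts9, chr6:92943535-92943784, minus strand: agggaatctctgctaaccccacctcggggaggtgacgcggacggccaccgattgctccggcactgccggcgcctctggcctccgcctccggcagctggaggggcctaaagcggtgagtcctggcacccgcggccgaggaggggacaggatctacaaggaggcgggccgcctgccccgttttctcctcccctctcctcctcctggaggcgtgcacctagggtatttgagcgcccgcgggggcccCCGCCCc
Timp1, chrX:20869916-20870165, plus strand: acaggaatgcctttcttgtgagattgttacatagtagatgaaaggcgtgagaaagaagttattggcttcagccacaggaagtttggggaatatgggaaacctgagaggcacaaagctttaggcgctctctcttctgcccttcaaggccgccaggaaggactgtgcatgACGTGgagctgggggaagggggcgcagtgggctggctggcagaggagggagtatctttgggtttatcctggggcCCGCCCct
Mmp12, chr9:7347124-7347373, plus strand, the later of its 2 listed starts, shown because the earlier start held no match: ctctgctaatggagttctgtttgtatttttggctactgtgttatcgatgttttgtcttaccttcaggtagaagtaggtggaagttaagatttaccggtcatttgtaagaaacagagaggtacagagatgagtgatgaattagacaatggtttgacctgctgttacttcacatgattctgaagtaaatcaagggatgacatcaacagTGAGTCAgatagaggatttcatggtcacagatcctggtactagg
The Adamts1 window held 3 SP1 matches and a TATA match whose first base lies 32 bases before the start. The Adamts9 window held 1 SP1 match, and the Timp1 window 1 SP1 match and 1 HIF match. The Mmp12 window held an AP-1 match that begins 44 bases before the start, and the window of its earlier start (chr9:7344147-7344396) held no match to any of the motifs. Over the same 250 bases of all 32851 listed promoters, 32.7% held an SP1 match, 16.6% a HIF match, 12.4% a TATA match, 6.75% an AP-1 match, 1.55% a CRE match and 0.980% an NF-kB match. A match is a run of letters, not a bound site.

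The members differed in the cells that held their RNA. Mmp9 was found in neutrophils, Adamts9 in endothelium, Timp3 in fibroblasts and vessel wall cells, and Mmp12 in a small number of activated microglia. Adamts4 was found in oligodendrocytes (99.97 CPM), in a pericyte cluster of 62 cells (628) and in the reactive endothelial cluster (104). The main pericyte cluster of 808 cells had 17.7 CPM of Adamts4. Adamts1 was the only member found at over 100 CPM in smooth muscle cells, endothelium, microglia and pericytes alike. The highest class was at least 2 times the next for 4 of the 9 members (Mmp9, Adamts9, Mmp12, Timp3), against 28.7% of the 14149 genes with at least 100 UMIs. Mmp12 was among the 4 through a single fibroblast with 93 UMIs, and without the cell of most UMIs in each class the count was 3. Of the 41 other pathway genes with that many UMIs, 17 did so.

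**Figure D1:**
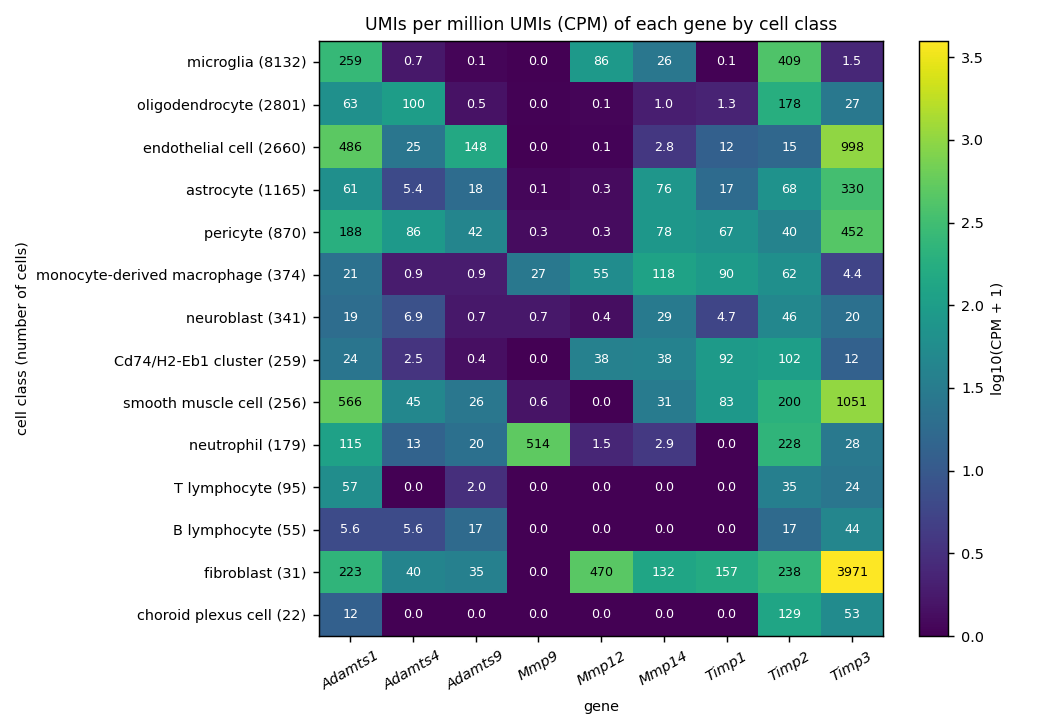
Heat map of the CPM of the 9 genes (columns) in 13 cell classes and the Cd74/H2-Eb1 cluster (rows, with the number of cells), coloured by log10(CPM + 1) with the CPM written in each field. Mmp9 stands at 514 in neutrophils and at most 26.7 elsewhere, whereas Timp3 is over 300 in 5 classes.

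Adamts1, a versican- and aggrecan-cleaving protease that also inhibits vessel growth, lies at chr16:85793827-85803113 in the mm10 annotation and overlaps no other gene. Its level was 566 CPM (532 to 602) in smooth muscle cells, 486 (473 to 499) in endothelium, 259 (255 to 264) in microglia, 223 (162 to 299) in fibroblasts and 188 (173 to 203) in pericytes. In the pooled cells, smooth muscle cells exceeded endothelium by 1.16 times (1.09 to 1.25). Microglia, fibroblasts and pericytes did not differ as neighbours beyond counting error, whereas the step from endothelium to microglia was 1.87 times (1.81 to 1.93). By number of molecules, microglia held 54.1% of all Adamts1 UMIs and endothelium 26.2%.

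The level of Adamts1 moved between libraries in nearly every class. In libraries 1 to 6, endothelium had 141, 498, 357, 846, 189 and 720.0 CPM. Microglia had 131, 218, 125, 314, 253 and 566 CPM, and pericytes 19.5, 202, 29.7, 400.0, 34.7 and 499 CPM. Libraries 4 and 6 were the highest in all 3 classes, library 2 came next in endothelium and pericytes, and library 5 did so in microglia. Astrocytes followed with 114 CPM in library 4 and 186 in library 6 against 5.32 to 19.5 in the other libraries. Smooth muscle cells changed little by comparison, from 483 to 709 CPM over the 4 libraries with at least 20 such cells. Endothelium was above all of these values in libraries 4 and 6, so that the pooled order of these 2 classes did not hold there. Free RNA, measured in barcodes with 1 to 50 UMIs, held 41.5, 77.7, 56.4, 152, 78.2 and 179 CPM of Adamts1 in libraries 1 to 6. It was thus highest in the same libraries 4 and 6, near the level of astrocytes there, and its part in the astrocyte values was not tested.

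Within microglia, Adamts1 followed the cluster in every library. Cluster 2, the one highest for the immediate-early genes Fos, Egr1 and Nfkbiz, had 216 to 530 CPM over the 6 libraries. Cluster 0 had 80.4 to 232 CPM and cluster 1 had 4.09 to 51.7 CPM, and the order of these 3 clusters was the same in each of the 6 libraries. Against all other microglia the ratio of cluster 2 was 3.68 to 4.31 in libraries 1, 2, 3 and 5, but 1.35 (1.25 to 1.45) in library 4 and 0.926 in library 6. In those libraries the rest of the microglia included the activated cluster 5, named from Lpl, Spp1 and Gpr84, which had 478 CPM of Adamts1 in library 4 and 677 in library 6. Fos stood at 5493 CPM in cluster 2 and 1220.5 in the other microglia. At 2 times or more against all other microglia pooled, 0 of the 3 members of at least 50 CPM were higher in cluster 2, where 3.24% of 3244 genes were, and 1 of 3 (Mmp12) was lower, where 0.925% were. Mmp12 reached that level, and counted as lower, only through the activated cluster 5 at 372 CPM. It was at 2.07 CPM in cluster 2, 1.39 in cluster 0 and 0.881 in cluster 1. The cells were digested with enzymes before sorting, and the part of that step in these values was not tested.

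**Figure D2:**
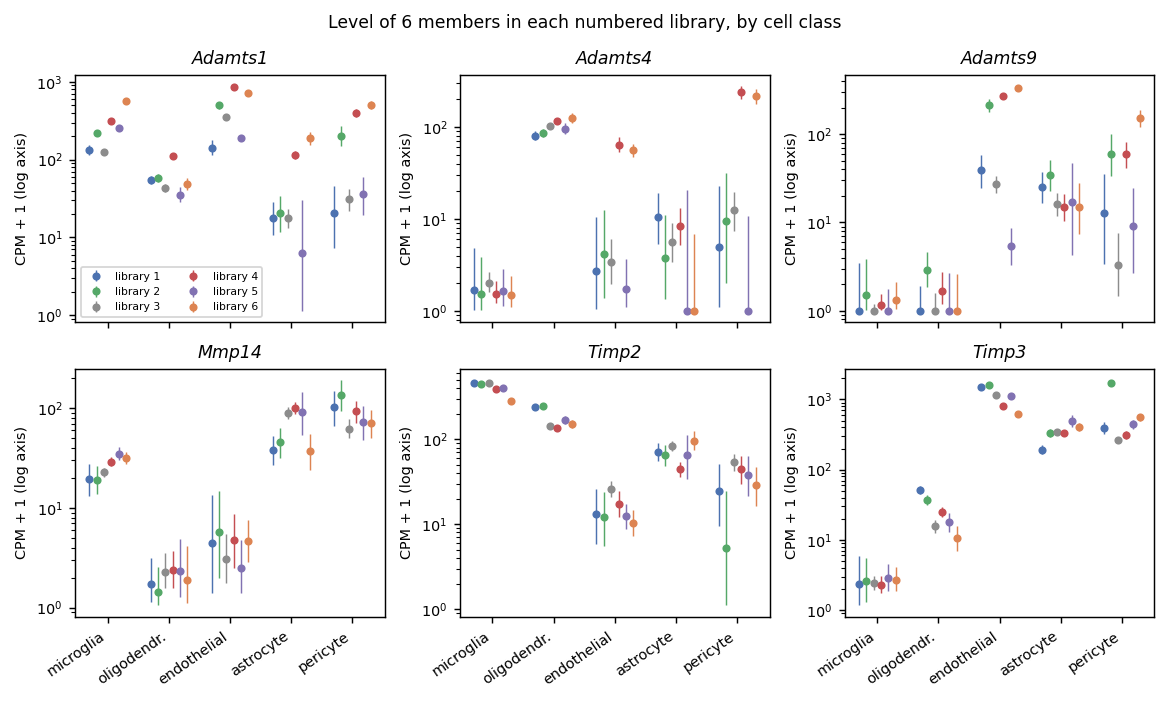
CPM + 1 on a log axis of 6 members in 5 cell classes, with a point for each of the 6 numbered libraries and exact 95% Poisson intervals as bars. Adamts4 is level at 79.5 to 124 CPM in oligodendrocytes and splits libraries 4 and 6 from the others in pericytes and endothelium, whereas Timp2 varies little in microglia.

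Adamts4, an aggrecanase that cleaves brevican in the brain matrix, lies at chr1:171250421-171260637. Oligodendrocytes held 75.7% of its UMIs at 99.97 CPM (96.1 to 104), with at least 1 UMI in 53.5% of cells. Libraries 1 to 6 gave 79.5, 85.2, 103, 116, 94.9 and 124 CPM in this class. The highest was 1.56 times the lowest, and no member passed the 4-fold spread in oligodendrocytes, where 1.54% of 3124 genes did. In contrast, pericytes had 3.89, 8.41, 11.4, 239, 0 and 216 CPM in libraries 1 to 6. A count of 3 in library 5 would be 8.01 CPM, so that library 4 was at least 29.8 times higher than library 5. Endothelium showed the same split, with 63.5 CPM in library 4, 54.9 in library 6 and 0.736 to 3.18 in the others. Pooled, oligodendrocytes were above pericytes by 1.17 times (1.03 to 1.32), and without library 3, which held 359 of the 870 pericytes, this order turned round, at 0.744 times. Of the 288 Adamts4 UMIs of pericytes, 235 lay in a cluster of 62 cells. The main pericyte cluster of 808 cells was at 17.7 CPM, below the 32.5 to 54.5 CPM of Adamts4 in free RNA.

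Adamts9, a large versican-cleaving ADAMTS protease, lies at chr6:92772699-92943492 and overlaps 3 genes on the opposite strand. Endothelium held 80.6% of its UMIs, at 148 CPM (141 to 155), which was 3.53 times (2.97 to 4.22) the 41.9 CPM of pericytes. In libraries 1 to 6 the endothelium had 37.9, 212, 25.9, 269, 4.42 and 330 CPM, a 74.7-fold range in which libraries 2, 4 and 6 were high. Pericytes had 11.7, 58.9, 2.29, 57.8, 8.01 and 150 CPM, and the same 3 libraries were the highest. Microglia and oligodendrocytes were at 0.111 and 0.511 CPM.

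The response pericytes brought the 3 ADAMTS genes and Timp1 together. These 55 cells, 22 of library 4 and 33 of library 6, were the mural subcluster highest for Ccl7, Cxcl1, Mt1, Ccl11 and Cxcl2, and the other 766 pericyte-like mural cells served for comparison. The study names Adamts4 and, for an earlier state, Adamts1 from these same samples, so that their levels here are a description and not independent evidence. In library 4 Adamts1 was at 1481 CPM in response cells and 93.5 in the others, and in library 6 at 946 and 161. Adamts4 was at 806 and 64.7 CPM in library 4 and at 559 and 25.1 in library 6. Adamts9 was at 197 and 14.4 CPM in library 4 and at 305 and 28.6 in library 6. All 3 genes were thus higher in response cells of both libraries. How many of all genes had counting intervals apart within a library was not counted.

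The pooled ratios were 16.5 (13.7 to 19.9) for Adamts1, 32.8 (24.0 to 45.5) for Adamts4 and 24.7 (15.9 to 39.4) for Adamts9. Leaving out a library moved them, for Adamts1 to 10.9 without library 3 and 25.7 without library 6, for Adamts4 to 50.6 without library 4, and for Adamts9 to 15.8 without library 3. Timp1, the inducible inhibitor, had 195 UMIs in the 55 response cells and 10 in the 766 others, at 643 and 3.86 CPM, a ratio of 166 (88.5 to 352). A single cell of library 6 held 60 of these UMIs. Within libraries the ratio of Timp1 was 108 (35.8 to 535) in library 4 and 31.8 (13.2 to 99.9) in library 6, and the pooled ratio was 106 without library 3 and 359 without library 6. Mmp14 differed by less than counting error, with a ratio of 1.37 (0.921 to 1.99). Timp3 went the other way, at 185 CPM in response cells and 560.3 in the others, a ratio of 0.329 (0.248 to 0.430), and it was lower in both libraries. Smooth muscle markers, with 5 of 6 detected and Cnn1 at 0, summed to 316 CPM in response cells and 2669 in the others, and the 8 pericyte markers to 10502 and 34730. Their part in the Timp3 value was not tested.

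Counted over the members with a mean of at least 50 CPM in this comparison, 4 of 6 were at least 2 times higher in response cells, against 12.2% of 3558 genes, and 1 of 6 (Timp3) was at least 2 times lower, against 14.9%. The median ratio was 20.6 over these 6 members and 0.948 over all genes of that level. Adamts4, Adamts9 and Timp1 reached that level only through the response cells. The count and the median therefore describe the state and are no separate support. The other 3 members, Mmp9, Mmp12 and Timp2, were below that level, with 0, 0 and 6 UMIs in response cells. Among the other pathway genes with that mean, the urokinase receptor Plaur (171 and 4.64 CPM) and Adamts8 (92.3 and 11.6) were at least 2 times higher. Cst3, the cysteine protease inhibitor cystatin C (349 and 2938), and Lrp1, an endocytic receptor that clears proteases (75.8 and 295), were at least 2 times lower. Both Adamts1 and Adamts4 had UMIs in 34 of the 55 response cells, and both Adamts4 and Timp1 in 25. Of the 766 others, 10 and 4 did so. Taken singly, Adamts1 was found in 80% of response cells, Adamts4 in 78.2% and Timp1 in 58.2%. Whether the pairs met more often than these shares give was not tested. Response cells were deeper, with a median of 5011 UMIs against 3213.5. Of the 6 fibroblast markers, 2 were at least 2 times higher in response cells, with a summed level of 1816 CPM against 231, most of it Dcn, while Col1a1 and Pdgfra were at 0. Their part in these results was not tested.

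**Figure D3:**
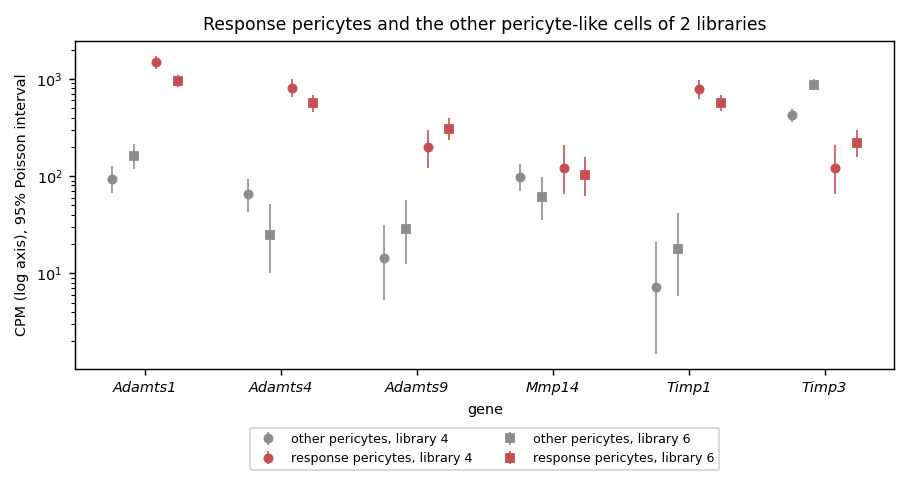
CPM on a log axis of 6 members in response pericytes (red) and the other pericyte-like cells (grey) of library 4 (circles) and library 6 (squares), with exact 95% Poisson intervals. Adamts1, Adamts4, Adamts9 and Timp1 are higher in response cells of both libraries, Timp3 is lower in both, and the intervals of Mmp14 overlap.

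Library number also went with how the other pericytes divided. Mural subcluster 1 drew 152 of its 234 cells from library 3 and 76 from library 4, and subcluster 3 drew 98 and 15 of 125, whereas subcluster 0 had only 13 and 5 of its 239 cells from these libraries. Timp3 was at 316 and 294 CPM in subclusters 1 and 3 and at 709 in subcluster 0. In all pericytes Timp3 had 397, 1695, 263, 313, 443 and 562 CPM in libraries 1 to 6. Library 2 was thus 6.45 times the lowest, and it kept 1538 CPM without its cell of most UMIs. Over the 5 members of at least 50 CPM on average in pericytes, 4 (Adamts1, Adamts4, Timp1, Timp3) differed at least 4-fold between the highest and lowest library, against 6.52% of 3666 genes. The corresponding counts were 2 of 3 members in microglia (Mmp12, Adamts1) against 2.30% of genes, 2 of 3 in endothelium (Adamts9, Adamts1) against 3.74%, and 1 of 4 in astrocytes (Adamts1) against 4.90%. Adamts4 and Timp1 in pericytes, Mmp12 in microglia and Adamts1 in astrocytes reached 50 CPM on average only through libraries 4 and 6. Adamts9 in endothelium and Adamts1 in pericytes did so only through libraries 2, 4 and 6. These members were thus admitted for being high in few libraries, and the counts are a description. In the sum of a class, a different mix of its states and a different level in each cell cannot be told apart.

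The endothelium held a contrast between Timp3 and the ADAMTS genes. Cluster 9, the one highest for Vwf, Slc38a5, Icam1, Selp and Ackr1 and called reactive or venous here, was set against the capillary cluster 3 and the arterial cluster 14. Cluster 3 was called capillary as the remaining endothelial cluster, and it was not scored for capillary markers. Adamts9 had 595 CPM in cluster 9 and 55.6 in the other endothelium of library 4, and 530.3 and 57.9 in library 6, ratios of 10.7 (8.20 to 14.2) and 9.16 (7.21 to 11.8). Adamts4 had 158 and 1.77 CPM in library 4 and 94.1 and 1.59 in library 6. Adamts1 had 1382 and 496 CPM in library 4 and 854 and 538 in library 6. Timp3 was lower in cluster 9, at 381 and 1066 CPM in library 4 and at 258 and 1133 in library 6. All 3 ADAMTS genes were thus higher and Timp3 lower in both libraries. Timp1 rested mostly on library 6, with 66.1 CPM in cluster 9 and 3.17 in the rest.

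Over the members of at least 50 CPM in this comparison, 3 of 4 were at least 2 times higher in cluster 9, against 5.86% of 3397 genes, and 1 of 4 was at least 2 times lower, against 7.74%. In library 6, which held 317 of the 530 cells, Adamts1 was below that size, at 1.59 times (1.45 to 1.74), and in library 3, with 20 cells, at 0.964. Adamts4 and Adamts9 reached 50 CPM on average only through cluster 9. Of 8 other pathway genes, Lcn2, which binds Mmp9 (1294 and 40.4 CPM), and Plaur (405 and 100.2) were at least 2 times higher and Bsg, an inducer of metalloproteases (2408 and 11542), lower. Of 6 neutrophil markers, 3 were at least 2 times higher in cluster 9, with summed levels of 51.1 and 10.6 CPM and Fpr1 and Cxcr2 at 0. The part of this RNA in the result was not tested.

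The arterial cluster 14 was the endothelium richest in Timp3. Over the 5 libraries with at least 20 arterial cells it had 2198 to 3539 CPM, above the 837 to 1405 CPM of capillary cells in all 6 libraries, which were in turn above the 258 to 381 CPM of cluster 9 in 3 libraries. Its ratio to the other endothelium was 3.17 (3.05 to 3.30) for Timp3, the 1 of 3 members at least 2 times higher there, where 3.29% of 3499 genes were. Adamts9, at 38.9 against 164 CPM, was the 1 of 3 members at least 2 times lower, where 2.63% of genes were. The capillary cluster 3 was at 40.9 CPM (36.5 to 45.8), near the arterial cells (29.6 to 50.2). Adamts9 thus reached 50 CPM on average, and counted as lower, only through cluster 9 at 505 CPM. All 6 microglia markers were also at least 2 times higher in arterial cells, with summed levels of 552 against 137 CPM, and their part in the Timp2 level of 64.7 against 7.78 CPM was not tested.

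**Figure D4:**
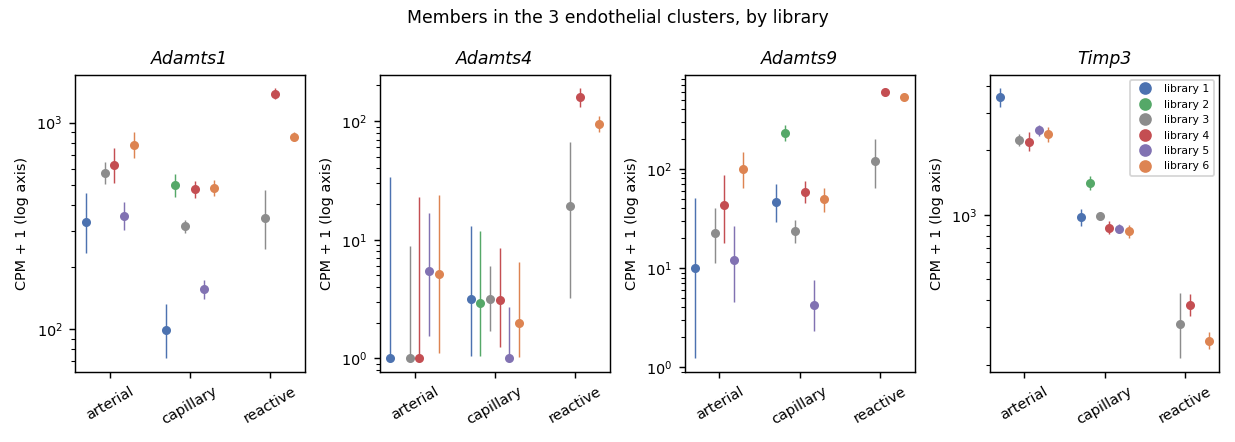
CPM + 1 on a log axis of Adamts1, Adamts4, Adamts9 and Timp3 in the arterial, capillary and reactive endothelial clusters, with a point for each library with at least 20 cells and exact 95% Poisson intervals. Timp3 steps down from 2198 to 3539 CPM in arterial cells to 258 to 381 CPM in reactive cells, whereas Adamts4 and Adamts9 are highest in reactive cells of libraries 4 and 6.

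Among the metalloproteases, Mmp9 (gelatinase B, at chr2:164940780-164955850) had the widest gap of the 9 members between its first and its next class. Neutrophils held 78.5% of its 451 UMIs, at 514 CPM (462 to 570.2), and 70.4% of the 179 cells had at least 1. Monocyte-derived macrophages came next at 26.7 CPM (21.5 to 32.8), 19.3 times lower (15.2 to 24.5), and every other class was below 1 CPM. This ratio was 13.4 without library 4 and 671 without library 6. Endothelium had 0 of 2660 cells with a UMI, and the limit that 3 counts set on such cells was 0.113%. By library, neutrophils had 826, 506 and 361 CPM in libraries 3, 4 and 6, those with at least 20 such cells. The macrophages had 0.919 CPM in library 4 and 40.7 in library 6. Mmp8, the neutrophil collagenase, had the same order of classes, with 866 CPM in neutrophils and 48.0 in the macrophages.

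Mmp12 (macrophage elastase, at chr9:7344381-7369499, overlapping Mmp1b on the opposite strand) was found at high level in few cells. Microglia held 91.1% of its UMIs, but only 2.23% of microglia had a UMI. In the activated cluster 5 its level was 372 CPM, in 11.9% of 1384 cells, against 1.52 CPM in the other microglia. Library 4 gave 516 against 2.73 CPM and library 6 gave 208 against 1.95, ratios of 189 and 107. A single cell held 232 of the 3821 UMIs of the cluster. In libraries 1, 2, 3 and 5, which had 2, 7, 25 and 9 cells of the cluster, the level over all microglia was 0.421 to 4.68 CPM. The highest class by pooled level was fibroblasts at 470.4 CPM, but a single fibroblast of library 4 carried all 93 UMIs and the rest had 0. Monocyte-derived macrophages had 55.2 CPM, with 13.8 and 78.2 in the 2 libraries with at least 20 such cells, and the Cd74/H2-Eb1 cluster had 37.7. Single cells held 49 of the 186 UMIs of the macrophages and 27 of the 90 of that cluster. Free RNA held 45.3 CPM of Mmp12 in library 4 and 31.9 in library 6, and its part in these levels was not tested.

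The activated microglia were also higher in Adamts1, at 554 against 172 CPM, a ratio of 3.21 pooled, 2.56 in library 4 and 2.05 in library 6. They were lower in Timp2, at 288 against 445 CPM, a ratio of 0.681 in library 4 and 0.690 in library 6. At 2 times or more, 2 of the 3 members of at least 50 CPM were higher, against 8.58% of 3323 genes, and 0 of 3 were lower, against 8.10%. Mmp12 reached that level only through the activated cluster. Of 12 other pathway genes, 4 were higher, namely the sheddase Adam8 (142 against 1.44 CPM), Plaur, the plasminogen activator Plau and the proprotein convertase Furin, and Serpine2 and Cst3 were lower. Of 6 monocyte-derived macrophage markers, 2 were at least 2 times higher in the cluster, with summed levels of 65.0 and 15.5 CPM and Ly6c2 at 0. The cells were deeper too, at a median of 6877.5 against 4928 UMIs. What these values contribute was not tested.

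**Figure D5:**
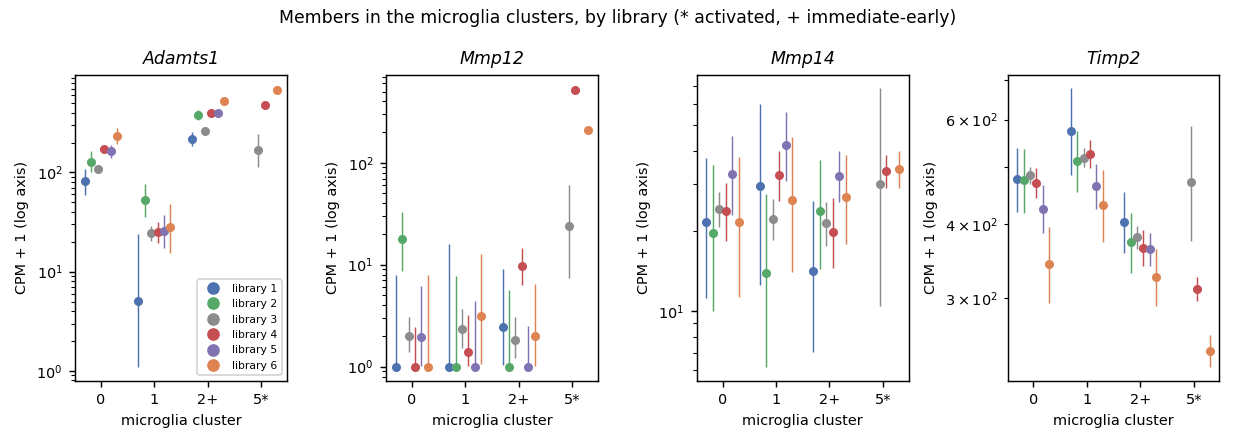
CPM + 1 on a log axis of Adamts1, Mmp12, Mmp14 and Timp2 in 4 microglia clusters, with a point for each library with at least 20 cells and exact 95% Poisson intervals. Mmp12 reaches 516 and 208 CPM in cluster 5 of libraries 4 and 6 and at most 23.2 elsewhere, and Timp2 is lowest in the same cells.

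Mmp14, the membrane-bound activator of Mmp2, lies at chr14:54431612-54445364. It was spread over several classes, at 132 CPM (85.9 to 193) in fibroblasts, 118 (106 to 130) in monocyte-derived macrophages, 78.2 (69.0 to 88.2) in pericytes and 76.2 (70.0 to 82.9) in astrocytes. Neither the first nor the last pair of this order differed beyond counting error in the pooled cells, but the first pair was at 0.717 without library 4 and at 9.48 without library 6. Microglia were at 25.9 CPM, and oligodendrocytes and endothelium at 1.02 and 2.83. Pericytes varied 2.18-fold between libraries (61.7 to 135 CPM) and astrocytes 2.76-fold (36.0 to 99.4 CPM), whereas the macrophages had 16.5 CPM in library 4 and 173 in library 6. Mmp14 and its partner Timp2 both had UMIs in 8 of 31 fibroblasts, 14.1% of smooth muscle cells and 13.1% of the macrophages. They did so in 9.95% of microglia, 9.10% of astrocytes and 2 of the 55 response pericytes. Taken singly, Mmp14 was found in 12.0% and Timp2 in 80.9% of microglia, and in 18.4% and 68.75% of smooth muscle cells. Whether the pair met more often than the single shares give was not tested.

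Of the inhibitors, Timp1 (chrX:20870166-20874735, within Syn1 on the opposite strand) was nearly confined to libraries 4 and 6. In pericytes libraries 1 to 6 had 0, 0, 0.762, 170.3, 2.67 and 214 CPM. In astrocytes library 4 had 30.5 CPM, library 6 had 90.8 and the others 0 to 0.388. Monocyte-derived macrophages had 46.9 CPM in library 4 and 116 in library 6, and microglia were at 0.0666 CPM over all libraries. Among astrocytes Timp1 lay in cluster 7, the one highest for Gfap, Vim and Cd44, with 37.2 against 2.41 CPM in library 4 and 111 against 7.98 in library 6. Its mean over the clusters was below 50 CPM, and of the 4 members above it (Adamts1, Mmp14, Timp2, Timp3) 0 were at least 2 times higher in cluster 7, where 18.5% of 3339 genes were, and 0 lower, where 10.3% were. Of 6 neutrophil markers, 3 were at least 2 times higher in this cluster too, with summed levels of 134 and 27.9 CPM and Fpr1 at 0, and the part of this RNA was not tested. The cells were also deeper, at a median of 6586 UMIs against 3483. Cluster 7 held 773 of the 1165 astrocytes. The remaining astrocytes had summed oligodendrocyte markers of 4498 CPM against 225 in cluster 7, and microglia markers of 1279 against 398. Their astrocyte markers summed to 11691 CPM against 17258, and the part of these differences was not tested.

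Single cells weigh heavily on the order of classes for Timp1. Fibroblasts led at 157 CPM, but 22 of their 31 UMIs were in 1 cell, without which they were at 48.1. Smooth muscle cells had 82.9 CPM and 32.5 without a cell that held 91 of 149 UMIs. The Cd74/H2-Eb1 cluster had 91.9 CPM (80.1 to 105). At a higher clustering resolution this cluster divided into 135 cells that scored highest for dendritic cell markers and 124 that scored highest for perivascular macrophage markers, and all 219 Timp1 UMIs lay in the former, at 139 CPM and in 36.3% of cells. The latter had 0 UMIs, with an upper limit of 4.56 CPM. Timp2 divided the other way, with 23.5 and 256 CPM.

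Timp2 (chr11:118301069-118355740) was found in many classes. Microglia had 409 CPM (403 to 415), with a UMI in 80.9% of cells, and held 73.3% of its UMIs. Libraries 1 to 6 gave 458, 444, 463, 392, 401 and 278 CPM in this class, so that library 6 was the lowest. Oligodendrocytes had 178 CPM, with 238 and 244 in libraries 1 and 2 and 136 to 169 in the rest. Within microglia the clusters kept 1 order in all 6 libraries, with 429 to 573 CPM in cluster 1, 341 to 482 in cluster 0 and 324 to 402 in cluster 2. In pericytes Timp2 ran from 4.21 to 52.6 CPM over the libraries. Some cells of this class lay in mural subclusters left unnamed because another class scored high too. Those unnamed subclusters had 72.9 to 377 CPM of Timp2, and the subclusters named as pericytes, response cells included, had 2.45 to 40.2. The part of the mixed cells in the class values was not tested. Free RNA held 320, 246, 190 and 132 CPM of Timp2 in libraries 3 to 6. Smooth muscle cells had 258, 216, 179 and 162 CPM in the same libraries, so that only library 6 lay above its free RNA. Endothelium was at 9.43 to 25.2 CPM over all 6 libraries, and the part of free RNA in a class was not tested. Neutrophils had 250.2, 265 and 132 CPM in libraries 3, 4 and 6.

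Timp3 (chr10:86300372-86349506, overlapping Syn3 on the opposite strand) was the inhibitor of the vessel wall. Fibroblasts, of which there were 31, had 3971 CPM (3698 to 4259), 3.78 times (3.47 to 4.11) the 1051 CPM of smooth muscle cells. Endothelium had 998 CPM (980.0 to 1016) and 59.9% of all UMIs. In the pooled cells pericytes followed at 452 CPM and astrocytes at 330, each step beyond counting error. This order did not hold in every library, since astrocytes had 495 CPM in library 5, above the pericytes there. Pericytes ran from 263 CPM in library 3 to 1695 in library 2. Smooth muscle cells had 845 to 1176 CPM over the libraries with at least 20 of them, and endothelium 1484, 1596, 1165, 795, 1121 and 629 CPM in libraries 1 to 6, lowest in libraries 4 and 6. Microglia, with 1.49 CPM, were below the 77.2 to 138 CPM of free RNA.

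The share of cells with a UMI depended on depth. At full depth 5 of the 9 members (Adamts1, Adamts4, Mmp9, Timp2, Timp3) had a UMI in at least 50% of the cells of some class, and with each cell thinned to 1000 UMIs only Timp3 did, in 90.3% of fibroblasts, 61.3% of smooth muscle cells and 50.6% of endothelial cells. How many of all genes reached 50% in a class, at full depth or thinned, was not counted. No cell was shallower than 1000 UMIs. Adamts4 fell from 53.5% to 8.46% of oligodendrocytes, and Mmp9 from 70.4% to 38.0% of neutrophils. In microglia, a class at 0.732 CPM of Adamts4, 32 of 8132 cells (0.394%) had a UMI of it, at a median depth of 5150 UMIs against 8876 in oligodendrocytes.

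Oligodendrocytes of cluster 8, the one highest for Serpina3n and C4b, had more Adamts1 than the others, at 142 against 46.4 CPM, a ratio of 3.06 (2.77 to 3.39). It was the 1 of 3 members that passed 2 times upward, against 4.41% of 3174 genes, and 0 of 3 passed downward, against 1.29%. Adamts1 reached 50 CPM on average only through cluster 8, so that this count is a description. The ratio was 3.66 (3.09 to 4.35) in library 4, 3.04 (1.84 to 4.78) in library 1 and 2.83 (1.91 to 4.21) in library 6, but 1.14 (0.824 to 1.56) in library 3. In the same cluster 5 of 6 microglia markers were at least 2 times higher, with summed levels of 1528 against 79.5 CPM, 10.6% of cells were called doublets, and the share of cells with an Adamts1 UMI was 30.5% against 24.8%. A single cell held 97 of the 622 Adamts1 UMIs of the cluster. Library 4, with 287 of its 603 cells, had 152 CPM of Adamts1 in free RNA. The part of microglial RNA, of free RNA and of that cell in this difference was not tested. Adamts4 was at 95.2 and 101 CPM in these cells and the rest.

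The other 56 genes of the pathway, a list chosen with earlier results of these data known, filled in the classes around the members. Of 13 other metalloproteases, 5 reached 50 CPM in some class, led by Mmp8 in neutrophils, the stromelysin Mmp3 (597 CPM) and the collagenase Mmp13 (106) in fibroblasts and Mmp19 (73.5) in monocyte-derived macrophages. Of 15 other ADAMTS genes, Adamts5 (126 CPM) and Adamts10 (96.1) did so, both in fibroblasts. Of 7 sheddases, which release proteins from the cell surface, 6 did so, among them Adam8 in neutrophils (419), Adam10 (274) and Adam17 (129) in microglia and Adam15 in endothelium (184). The remaining TIMP, Timp4, was an astrocyte gene at 386 CPM, 24.8 times (17.1 to 37.3) the next class, and Cst3 was at 47465 CPM in microglia. Plat, the tissue plasminogen activator, was level between endothelium (633) and pericytes (631), and Plaur was highest in neutrophils (642). Of the substrates, brevican (Bcan) was at 1105 CPM in astrocytes, 67.5 times the next class.

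Over the 51 sums of 1 class in 1 library with at least 20 cells, on log2(CPM + 10), the genes most like each member were taken by Pearson's r among 14140 genes. These points share libraries and depth, and the values are a description. Timp3 was closest to Epas1 (r = 0.951), Tspan12 and Pcdh1. Mmp9 was closest to Gm20406 (r = 0.976), Dhrs9 and Slfn4, and Mmp12 to Msr1 (r = 0.863), Fndc7 and Gm14636. Mmp14 was closest to Lrp1 (r = 0.854), Carmil1 and Nupr1, Adamts9 to Vsig2 (r = 0.799), Map3k6 and Mapk12, and Adamts4 to Aebp1 (r = 0.797), Cdc42ep2 and Cdr2l. Timp2 was closest to Slc8a1 (r = 0.791), Cd9 and Slc16a7, Adamts1 to Sparc (r = 0.731), Trim47 and Rhoc, and among those most like Timp1 were Procr (r = 0.618) and Il11. Between members the highest r was 0.69, of Timp3 and Adamts9, and the lowest -0.51, of Timp2 and Adamts9.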

How the data were processed

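The values are raw UMI counts, which the authors deposited for 6 libraries in 1 matrix. It was made with Cell Ranger 5.0.1 and its aggregation step, which by their methods equalized depth between libraries and may have thinned reads. The build was mm10 by the submitters' processing notes, and no column of other samples was present. A barcode counted as a cell when its UMIs reached 0.1 of percentile 99 among the 3000 deepest of its library, with 200 or more features and no more than 10% mitochondrial counts. Counts were scaled to 10000 per cell and log-transformed, and 2000 variable genes, 30 components (15 for mural cells), 20 neighbours and Leiden clustering at resolution 0.8 followed, with hemoglobin genes, the 9 members and 56 pathway genes left out. Clusters took the class whose markers had the highest mean log2 ratio to the median cluster (pseudocount 10 CPM, at least 3 markers raised 2 times). Clusters stayed unnamed when the lead was under 1, when hemoglobin exceeded 5% of UMIs, when over 50% of cells were doublets, or in mural cells when another class scored 3 or more. These limits, and the name of the Cd74/H2-Eb1 cluster, were set after seeing the data. Clusters and names were rebuilt here and may differ from those of the study. Doublets (1.75% of cells) were called by the Scrublet procedure with an expected rate of 6% and kept. No matched group of a library is given in the sources used here, so that tests between groups were not made. Members, lists and comparisons were chosen with earlier results of these data known. The limit of 50 CPM on a mean of both sides, or of all libraries, admits genes that are high on 1 side or in few libraries alone. This holds for members and for the genes counted beside them. Named genes are the 9 members, at most 4 genes of each pathway group by highest CPM plus those past 2 times in a state, and the 3 genes most like each member. Steps were tested on simulated counts. Python 3.11.15, numpy 2.4.6, scipy 1.17.1, scikit-learn 1.9.0, igraph 0.11.9 and leidenalg 0.10.2 were used. Gene positions are from GENCODE vM21 and promoters from RefSeq. Some items of the lists are not reported here.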

Additional observations from a re-analysis of the deposited data

How the results depend on the processing

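No paired analysis was possible because each group had 1 library and the libraries carry no group. Removing doublets, resolutions 0.4 and 1.2, the filters of the study alone and the mean over single cells left the count of members at least 2 times higher in response pericytes at 4 and that of members at least 2 times above the next class at 4, and the former was also 4 in each of libraries 4 and 6 alone and when any library was left out (4 to 4). The latter was 4 to 5 when a library was left out, 3 without the cell of most UMIs in each class, and 2 when single libraries were averaged, which drops fibroblasts since no library held 20 of them. The count of pairs of a member and a class with a 4-fold spread between libraries was 9 of 18, and 5 to 10 when a library was left out, with 5 without library 4 and 5 without library 6. Thinning to 1000 UMIs lowered the count of members with a UMI in at least 50% of the cells of a class from 5 to 1. The same count over all genes was not made. The order of classes that differed beyond counting error reversed in 5 cases. For Adamts4, oligodendrocytes stood at 0.744 times pericytes without library 3, in a range of 0.744 to 1.92 when a library was left out. For Mmp12, fibroblasts stood at 0 times microglia without library 4, in a range of 0 to 10.9. For Timp1, fibroblasts stood at 0.530 times the Cd74/H2-Eb1 cluster without library 6, in a range of 0.530 to 2.01. Leaving out the cell with most UMIs of a class, an alternative chosen after seeing the data, turned the same pairs, with 0 for Mmp12 and 0.579 for Timp1. The ratio of Timp1 at resolution 1.2 has no value, since its denominator was 0. Of the other ratios of classes over all alternatives, 84 stayed within the interval of counting error and 22 moved further. For Mmp14, whose first pair of classes did not differ beyond counting error, the ratio of 1.12 fell below 1 without library 4 (0.717) and without the cell of most UMIs (0.990). Of the ratios of single members in response pericytes, 71 stayed within that interval and 13 moved. Depth limits the low classes: a level of 1 CPM in 55 response cells is below 1 UMI.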
